A study of Mus musculus with 8 samples.

Results

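Double knockout mouse embryonic fibroblasts (MEFs), which lack both Dnmt2 and Nsun2, were set against Nsun2-/- MEFs, so that the comparison shows loss of Dnmt2 where Nsun2 is already absent. A gene was taken when either of the 2 arrays detected it (detection p-value under 0.01), which gave 9731 of the 16559 genes on the array. Of these, 8356 were detected on both arrays, 666 in the double knockout only and 709 in Nsun2-/- MEFs only. The series measured RNA on Illumina MouseRef-8 v2 bead arrays in MEFs and in livers of mice aged 2 months, each as wild type, Dnmt2-/-, Nsun2-/- and double knockout. All MEF groups came from embryos of day 13.5 on the strain background CBA/C57BL6j x B6;129, were made immortal with the SV40 large T antigen and were at passage 9. The alleles are not described further in the labels. Each genotype was 1 array of 1 labelled line, so no difference between a pair of arrays had a replicate check, and genotype cannot be told apart from what else differs between lines, including the mixed background. The large T antigen, which inactivates p53 and the retinoblastoma protein, was present in every MEF group.

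Dnmt2, whose gene symbol is Trdmt1, and Nsun2 both methylate cytosines of transfer RNAs at carbon 5. Dnmt2 acts on the anticodon loop of a few tRNAs, and Nsun2 acts on the variable loop of many tRNAs and at other sites. This methylation is known to protect tRNAs from cleavage by endonucleases such as angiogenin. The array measures messenger RNA and reads neither tRNAs nor their methylation.

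The Nsun2 probe was detected on neither array of the comparison, with normalized log2 signals of 4.33 in Nsun2-/- and 4.22 in double knockout MEFs, against 5.36 in wild-type and 5.14 in Dnmt2-/- MEFs. The brightest Trdmt1 probe lay near background and read 4.51 (not detected), 5.09, 4.40 (not detected) and 4.64 in wild-type, in Dnmt2-/-, in Nsun2-/- and in double knockout MEFs. The sources used here do not place this probe inside or outside the deletion, so it checks nothing about the label. Among the 10 neighbouring genes on each side of Trdmt1, none of those detected was 2-fold apart between double knockout and Nsun2-/- MEFs, with Pter (−0.92) and Cacnb2 (at least 0.94 higher on the log2 scale) the farthest from 0. The arrays compared were alike in the probes detected, 13221 in Nsun2-/- and 13063 in double knockout MEFs of 25608. The Y-linked genes Eif2s3y and Kdm5d were detected on neither, Xist was 5.90 and 6.07, and the probe of Y-linked Uty was detected on both (4.93 and 5.37), as on the other MEF arrays. In wild-type and Dnmt2-/- MEFs, Eif2s3y (7.85 and 6.78) and Kdm5d (5.95 and 5.70) were detected and the same Xist probe lay near background. Any comparison of either array with wild-type or Dnmt2-/- MEFs therefore also differs in these sex-linked genes, which cannot be told apart from Nsun2 genotype. Across probes, log2 intensities of the double knockout correlated with those of the 3 other MEF arrays at r of 0.978 to 0.979, and those 3 with one another at 0.986 to 0.989. The double knockout array thus stood apart from all other MEF arrays. Among fibroblast markers Vim (11.59 and 11.61), Sparc (13.10 and 13.01) and Col1a1 (11.40 and 10.95) were bright on both arrays of the comparison, and Postn was detected on neither. The arrays were not alike over the list, since 14 of 19 detected markers were lower in the double knockout, 9 of them at least 2-fold.

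At least 2-fold apart were 644 of the 9731 genes (6.62%), of which 323 (3.32%) were higher in the double knockout and 321 (3.3%) were lower. Differences are given on the log2 scale as double knockout minus Nsun2-/-, and their median over all genes was 0.01. In either direction small differences were about as common, with 50.7% of genes higher and 48.9% lower by any amount. Large ones were more often lower, with 43 genes at least 4-fold higher and 82 at least 4-fold lower, and 9 and 26 past 8-fold. Of the 644 genes, 563 were detected on both arrays, and the others rest on a bound, in which the array without detection was given the lowest signal among its detected probes. Split by mean signal into 3 groups of like size, the genes detected on both arrays were 2-fold apart in 4.99% of the dimmest group, 8.41% of the middle one and 6.82% of the brightest. Among 2-fold genes with a further detected probe, 226 of 243 further probes differed in the same direction and 118 were 2-fold the same way. With no background correction the count was 270, and with the authors' deposited values it was 262, in each case genes of the 644.

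**Figure D1:**
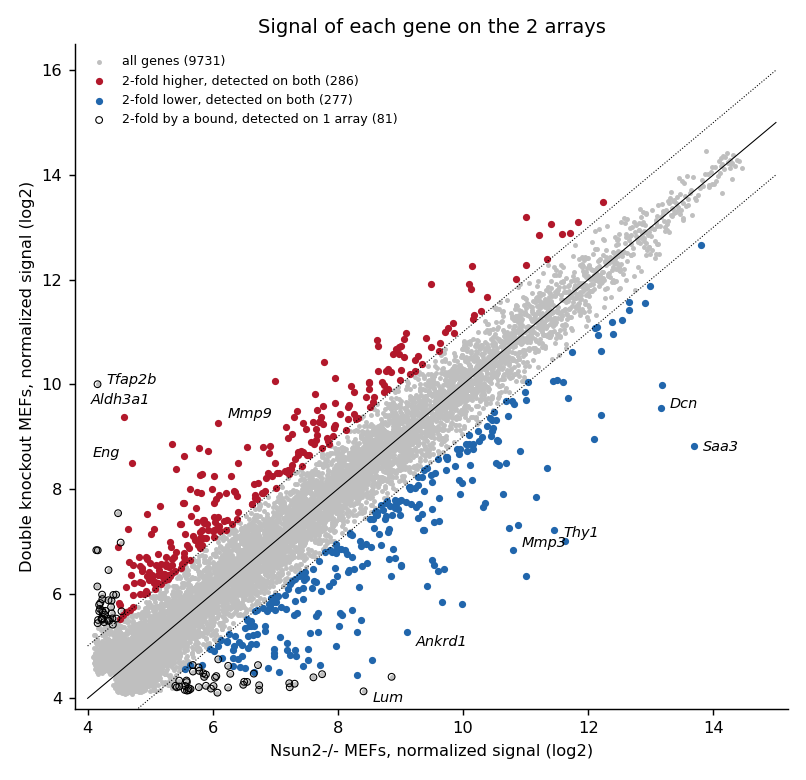
Normalized log2 signal of each of the 9731 genes in Nsun2-/- MEFs (abscissa) and double knockout MEFs (ordinate). Filled red and blue points are the 286 genes at least 2-fold higher and the 277 at least 2-fold lower among those detected on both arrays, open circles are the 81 genes 2-fold apart by a bound, the solid line marks equality and the dotted lines a 2-fold difference. Blue points reach farther from the line than red ones among bright genes such as Saa3, Dcn and Thy1.

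To see which of the arrays was unusual for a gene, each was set against all of the other MEF arrays. Of the 323 higher genes, the double knockout array was at least 2-fold above all 3 others for 137, and the Nsun2-/- array was at least 2-fold below all 3 others for 6. For the 321 lower genes these counts were 107 and 32, and some genes, such as Saa3, Plac8 and Cxcl14, are in both. The remaining 180 and 189 genes were 2-fold apart in the pair without either array standing 2-fold beyond the rest. Over all 9731 genes the double knockout array was the highest of the 4 MEF arrays for 32.3% and the lowest for 29.9%. These shares count a difference of any size, so they are no background for the 2-fold counts.

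The largest difference of all was in Tfap2b, which encodes AP-2 beta, a transcription factor of neural crest, kidney and facial mesenchyme. Its log2 signals were 4.12 (not detected), 8.46, 4.16 (not detected) and 10 in wild-type, in Dnmt2-/-, in Nsun2-/- and in double knockout MEFs. It was thus detected only in the MEFs labelled as lacking Dnmt2, and was at least 48.6-fold higher in the double knockout than in Nsun2-/- MEFs. Further Tfap2b probes differed by 4.64 and 4.0. In the limma fit of Dnmt2 loss in MEFs, which averages this pair and Dnmt2-/- against wild type, the adjusted p of Tfap2b was 0.158. Its paralogue Tfap2a, with signals of 7.24, 7.34, 7.0 and 10.06 in the same order, was 8.34-fold higher and was high in the double knockout alone. Other Tfap2a probes differed by 1.93 and 2.79.

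Gsc, Msx1, Six2 and Flrt3, taken from the largest differences and bounds, had their highest MEF signal in the double knockout. The homeobox gene Gsc (goosecoid) had signals of 4.72, 4.95, 5.78 and 8.78 in wild-type, in Dnmt2-/-, in Nsun2-/- and in double knockout MEFs, an 8.03-fold difference in the pair compared. Msx1, a homeobox gene of limb and craniofacial mesenchyme, read 6.11, 6.37, 5.93 and 8.72 and was 6.92-fold higher. Six2, which keeps nephron progenitors undifferentiated, was 4.73, then not detected on either single knockout array, and 6.83 in the double knockout, at least 5.40-fold higher. The other MEF arrays lay close together near background for Six2. The nuclear receptor Nr2f1 differed from them in that Dnmt2-/- MEFs were the lowest, with signals of 8.05, 6.52, 7.96 and 10.11. Flrt3, a membrane protein that acts in cell adhesion and FGF signalling, was 8.09, 7.87, 7.78 and 10.42 in the same order and 6.27-fold higher. With no background correction the difference of Six2 was 0.97, below 2-fold.

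Over the list of developmental transcription factors outside the Hox clusters, 57 of 87 genes on the array were detected, 31 higher and 26 lower, with a median of 0.22. The list was split at its ends, with 16 genes 2-fold higher and 12 2-fold lower. The higher ones included Irx3 (2.13), Irx5 (2.02), Meis2 (1.82), the cartilage factor Sox9 (1.60), Gata6 (1.25) and Foxc1 (1.13). Among the lower ones were Osr2 (−2.52), Shox2 (−2.24), Wt1 (−2.18), Irx1 (−1.93), Lhx8 (−1.64), Tbx3 (−1.45), Twist2 (−1.36) and Twist1 (−1.08). Genes of the same Iroquois family thus lay on opposite sides: Irx1 and Irx2 (−3.22), which lie near each other and near Nsun2 on chromosome 13, were lower, and Irx3 and Irx5, which neighbour each other on another chromosome, were higher. Osr2, a factor of palate and limb mesenchyme, had signals of 8.10, 7.67, 8.85 and 6.34 in wild-type, in Dnmt2-/-, in Nsun2-/- and in double knockout MEFs. The double knockout was the lowest of the MEF arrays for Osr2. Meox2, a homeobox factor of somites and limb muscle, was detected in Dnmt2-/- (5.42) and Nsun2-/- MEFs (7.23) and not in wild type or the double knockout, at least 7.11-fold lower in the double knockout than in Nsun2-/-.

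The Hox genes, which pattern the trunk and the limbs by position, were nearly all lower. Of 24 detected Hox genes of 38 on the array, 23 were lower and 1 (Hoxa13, 0.04) higher, with a median of −0.85 against 0.01 over all genes. At least 2-fold lower were 10, and 22 had their lowest MEF signal in the double knockout. All 5 Hoxd genes were 2-fold lower (median −2.34), against 3 of 8 Hoxa, 2 of 6 Hoxb and 0 of 5 Hoxc genes. Most were dim. Of the 24, 8 were detected on both arrays, and of the 5 Hoxd genes 1. The other values are bounds, whose direction follows from which array detected the gene. The count of lower genes thus rests largely on detection. With no background correction the list median was −0.29, and with the authors' deposited values −0.32.

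Hoxa7 had signals of 8.27, 6.38, 8.55 and 4.73 in wild-type, in Dnmt2-/-, in Nsun2-/- and in double knockout MEFs, and was 14.1-fold lower. Hoxa5, with 7.11, 6.70, 7.71 and 4.63 in the same order, was 8.42-fold lower. In both genes the double knockout was the lowest array, and in Hoxa7 the Dnmt2-/- array was also lower than wild type. Hoxd10 was 7.12, 6.74, 7.75 and 4.46 (not detected), at least 9.76-fold lower. Hoxd8 was 7.09, 5.51, 7.34 and 4.81, a 5.78-fold difference. Hoxd9 read 7.08, 4.85, 6.74 and 4.16 (not detected) and was at least 5.06-fold lower. Both pairs of arrays that differ in Dnmt2 thus had lower Hoxd8 and Hoxd9 where Dnmt2 was absent, and limma gave Hoxd9 an adjusted p of 0.158 for Dnmt2 loss in MEFs. In Dnmt2-/- against wild-type MEFs the list as a whole was not shifted as far, with 10 of 23 genes higher and a median of −0.19. The Hoxc genes had a different pattern: Hoxc6 was 9.69, 9.35, 8.0 and 7.55 and Hoxc9 was 8.90, 9.03, 7.15 and 6.57 in the same order, lower on both arrays without Nsun2.

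**Figure D2:**
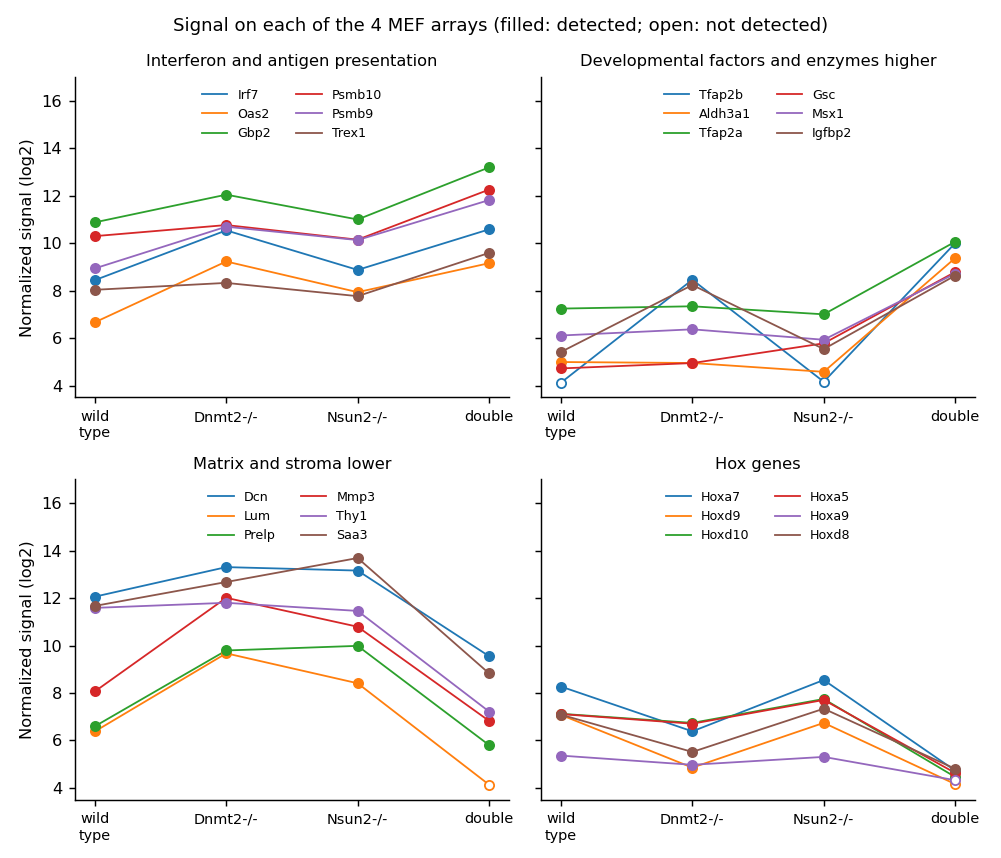
Normalized log2 signal (ordinate) of chosen genes on each of the 4 MEF arrays (abscissa), 1 array a genotype, in panels for interferon and antigen presentation genes, developmental factors and enzymes that were higher, matrix and stromal genes that were lower, and Hox genes. Filled points were detected and open points were not. Irf7 and Tfap2b were higher on both arrays without Dnmt2, Tfap2a, Gsc and Msx1 in the double knockout alone, and Lum, Prelp and Mmp3 were higher in both single knockouts than in wild type and lowest in the double knockout.

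Type I interferons are cytokines of antiviral defence: nucleic acid sensors induce them, they signal through the receptor Ifnar, and they switch on interferon-stimulated genes through a promoter element called the ISRE. The guanylate-binding proteins and the antigen presentation genes respond as well to interferon gamma through Irf1. Genes of this response were higher in the double knockout across several lists. Shown are promoters of 5 genes of these lists that carry the ISRE core, Gbp2b being lower in the double knockout and the others higher. The core was searched on both strands as a pair of GAAA repeats with any 2 bases between them. Matches, which may overlap, are in capitals. The sequences are from RefSeq, build GRCm38.p6, 250 bases before to 50 after the gene's start on the gene's own strand. They lie at chr4:156200769-156201068 (minus strand, Isg15), chr19:34583279-34583578 (plus, Ifit3), chr3:142620413-142620712 (plus, Gbp2), chr3:142594597-142594896 (plus, Gbp2b) and chr11:58199306-58199605 (plus, Igtp).
Isg15: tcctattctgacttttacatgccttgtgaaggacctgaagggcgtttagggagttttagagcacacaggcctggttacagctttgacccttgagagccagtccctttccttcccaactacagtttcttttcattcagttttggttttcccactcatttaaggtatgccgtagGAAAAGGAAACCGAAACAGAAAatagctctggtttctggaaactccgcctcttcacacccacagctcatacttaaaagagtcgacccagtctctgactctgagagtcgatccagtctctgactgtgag
Ifit3: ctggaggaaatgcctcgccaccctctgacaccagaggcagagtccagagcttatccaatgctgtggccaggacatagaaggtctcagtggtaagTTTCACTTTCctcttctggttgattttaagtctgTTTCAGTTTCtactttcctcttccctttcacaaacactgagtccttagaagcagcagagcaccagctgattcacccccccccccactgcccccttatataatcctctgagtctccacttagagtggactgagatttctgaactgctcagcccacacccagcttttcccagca
Gbp2: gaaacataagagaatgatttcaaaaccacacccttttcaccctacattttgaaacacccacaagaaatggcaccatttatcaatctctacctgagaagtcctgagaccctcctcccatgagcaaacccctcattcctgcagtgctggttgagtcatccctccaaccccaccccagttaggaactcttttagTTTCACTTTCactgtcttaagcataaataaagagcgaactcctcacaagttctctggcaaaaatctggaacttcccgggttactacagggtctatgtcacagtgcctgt
Gbp2b: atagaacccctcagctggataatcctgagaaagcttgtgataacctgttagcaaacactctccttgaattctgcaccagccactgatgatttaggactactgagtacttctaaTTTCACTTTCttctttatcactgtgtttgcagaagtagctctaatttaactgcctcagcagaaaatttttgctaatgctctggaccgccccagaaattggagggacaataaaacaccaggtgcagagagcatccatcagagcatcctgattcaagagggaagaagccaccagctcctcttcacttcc
Igtp: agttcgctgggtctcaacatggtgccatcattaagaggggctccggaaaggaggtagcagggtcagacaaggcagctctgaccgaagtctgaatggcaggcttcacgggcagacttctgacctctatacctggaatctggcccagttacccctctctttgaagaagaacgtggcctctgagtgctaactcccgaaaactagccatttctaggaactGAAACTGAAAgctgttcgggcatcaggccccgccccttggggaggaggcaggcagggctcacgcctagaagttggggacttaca
The first base of the match lies at −78, −72 and −66 relative to the start in Isg15, where 3 matches overlap, at −156 and −122 in Ifit3, at −59 in Gbp2, at −137 in Gbp2b and at −34 in Igtp. Isg15 encodes a ubiquitin-like protein, Ifit3 an RNA-binding antiviral protein, and Gbp2, Gbp2b and Igtp encode GTPases that attack vacuoles of intracellular pathogens.

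The ISRE core was present in 3.44% of 32851 promoter windows and in 3.84% of the 7915 windows found for the detected genes. It was found in 8.02% of 237 windows of genes 2-fold higher and in 6.61% of 242 of genes 2-fold lower. Of the antiviral interferon-stimulated genes 13 of 30 windows (43.3%) held it, of the guanylate-binding and immunity-related GTPases 9 of 9, and of the class I and immunoproteasome genes 3 of 15. The motif marks gene lists known to respond to interferon, and a match is a description of the letters, not of a bound factor.

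Of the interferon pathway itself 29 of 34 genes were detected, 23 higher and 6 lower, with a median of 0.60 and 7 genes 2-fold higher. All 7 nucleic acid sensors were higher (median 0.99), among them Tlr3 (1.31), Dhx58 (1.23), Zbp1 (1.19) and Ddx58 (0.99, the RNA sensor RIG-I). Ifnb1, which encodes interferon beta, had signals of 4.35 (not detected), 5.36, 4.94 and 6.02 in wild-type, in Dnmt2-/-, in Nsun2-/- and in double knockout MEFs, a 2.11-fold difference near the lower end of the signal range. All 3 receptor subunits detected were lower, with Ifngr1 at −0.25, Ifngr2 at −0.43 and Ifnar2, whose signals were 5.89, 6.04, 7.0 and 5.69, at −1.32. A mean over the Ifnar2 probes gave −0.83, below 2-fold. Of the kinases and transcription factors 9 of 10 were higher. Irf7, which drives expression of the interferon genes, read 8.44, 10.54, 8.87 and 10.58 in the same order. It was 3.27-fold higher in the double knockout, and both arrays without Dnmt2 were above both arrays with it. The limma adjusted p of Irf7 for Dnmt2 loss in MEFs was 0.197. Trex1, a DNA exonuclease that limits cytosolic DNA, was 8.03, 8.33, 7.77 and 9.59, a 3.54-fold difference that lay mainly in the double knockout array. Irf3, the factor that acts first on sensing, differed by −0.07.

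Of 42 antiviral interferon-stimulated genes on the array, 40 were detected, 33 higher and 7 lower, with a median of 0.78 against 0.01 over all genes. At least 2-fold higher were 15, and 2-fold lower were Xdh (−2.55) and Ifitm1 (−2.57). Trim30a had signals of 7.98, 8.88, 7.17 and 9.19 in wild-type, in Dnmt2-/-, in Nsun2-/- and in double knockout MEFs and was 4.05-fold higher. Ifit3, with 11.94, 13.09, 12.24 and 13.48, was 2.38-fold higher, and Isg15, with 12.28, 12.81, 12.17 and 12.96, was 0.79 higher on the log2 scale. In these 3 genes both arrays without Dnmt2 exceeded both arrays with it. Oas2, which makes the activator of the antiviral RNase L, was 6.66, 9.23, 7.94 and 9.16, so that the Nsun2-/- array lay between wild type and the others. Ube2l6 (1.67) and Uba7 (1.47), enzymes that attach Isg15 to proteins, and Ifi35 (1.60) were also 2-fold higher. Trim21 was 1.84 higher by its brightest probe and 0.57 as a mean over probes.

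Of 10 detected guanylate-binding and immunity-related GTPases, 8 were higher and 3 at least 2-fold (median 0.92). Gbp2 had signals of 10.88, 12.05, 11 and 13.19 in wild-type, in Dnmt2-/-, in Nsun2-/- and in double knockout MEFs and was 4.58-fold higher. Igtp read 9.95, 10.88, 10.10 and 11.91 in the same order and was 3.52-fold higher. Both were highest in the double knockout and next highest in Dnmt2-/- MEFs. Gbp2b ran the other way. It was 8.86 in Nsun2-/- MEFs and not detected on any other MEF array, so it was at least 21.8-fold lower in the double knockout. Gbp2b has near-identical neighbours and its reading is uncertain in which copy it comes from. In livers Gbp2b was detected on every array, at 6.65, 6.15, 7.58 and 8.16 in wild-type, in Dnmt2-/-, in Nsun2-/- and in double knockout livers.

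The class I histocompatibility genes present peptides made by the immunoproteasome, an interferon-induced form of the proteasome with the catalytic subunits Psmb8, Psmb9 and Psmb10. Of 25 genes on the array, 21 were detected, 18 higher and 3 lower, with 12 at least 2-fold higher, none 2-fold lower and a median of 1.11. All 5 immunoproteasome genes were 2-fold higher. Psmb10 had signals of 10.30, 10.76, 10.15 and 12.26 in wild-type, in Dnmt2-/-, in Nsun2-/- and in double knockout MEFs, a 4.32-fold difference. Psmb9 read 8.94, 10.70, 10.13 and 11.82 and was 3.22-fold higher, and Psmb8 read 6.80, 8.38, 7.76 and 9.25. For Psmb8 and Psmb9 each of the single knockouts lay above wild type and the double knockout was the highest, and for Psmb10 the double knockout alone was far from the others. The activator subunits Psme1 (1.66) and Psme2 (1.39) lie on chromosome 14, whose genes were higher in general, and were 1.31 and 1.04 above the chromosome's median. Of the peptide loading genes, Tap2 (1.47) and Tap1 (1.35), the subunits of the peptide transporter, were 2-fold higher. Of 9 class I chains 8 were higher, with H2-Q8 at 1.27, H2-T23 at 1.13 and H2-K1 at 1.12, although probes of these genes may read near-identical copies and can depend on the haplotype. B2m, their common light chain, was bright on all MEF arrays (13.87, 14.23, 14.13 and 14.32) and differed by 0.19. Nlrc5, a transactivator of class I genes, was 1.11 higher.

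Of 8 detected class II genes 7 were higher (median 0.42). Cd74, the invariant chain, had signals of 6.45, 8.14, 6.10 and 7.89 in wild-type, in Dnmt2-/-, in Nsun2-/- and in double knockout MEFs and was 1.80 higher. H2-Ab1 read 5.11, 7.48, 8.04 and 9.42. Both arrays without Dnmt2 were thus above their partners for both genes. In the livers, Cd74 was 10.01 in Nsun2-/- and 11.51 in the double knockout, and all 8 class II genes were higher there.

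These lists were also higher in Dnmt2-/- against wild-type MEFs, a pair that shares no array with this one: 37 of 40 antiviral genes (median 0.76), 20 of 21 class I and immunoproteasome genes (0.84) and 24 of 29 pathway genes (0.36), where 45.3% of the detected genes were higher. In the double knockout against Nsun2-/- livers 16 of 32 antiviral genes were higher (median −0.02) and 14 of 26 pathway genes (0.07). Class I and immunoproteasome genes were 16 of 20 higher there (0.12), with all 8 class I chains higher (0.25). For Dnmt2 loss in MEFs, limma gave an unadjusted p under 0.05 to 25 of 40 antiviral and 15 of 21 class I and immunoproteasome genes, each of these higher without Dnmt2, against 6.45% of the 10491 genes tested. None passed after Benjamini-Hochberg adjustment over all genes, with smallest limma adjusted p values of 0.33 and 0.37. The genes of a list answer to the same factors and are not independent of each other. Of 18 myeloid markers 7 were detected, with a median log2 signal of 5.65 in Nsun2-/- and 5.39 in double knockout MEFs. Coro1a (1.99) and Lyz1 (1.84) were higher, Cd14 (−1.78) was lower, and Ptprc, Adgre1, Itgam and Tyrobp were detected on neither array. Of 11 lymphoid markers 2 were detected, near background. In RNA from a whole culture, fewer cells of a type and less RNA per cell cannot be told apart.

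**Figure D3:**
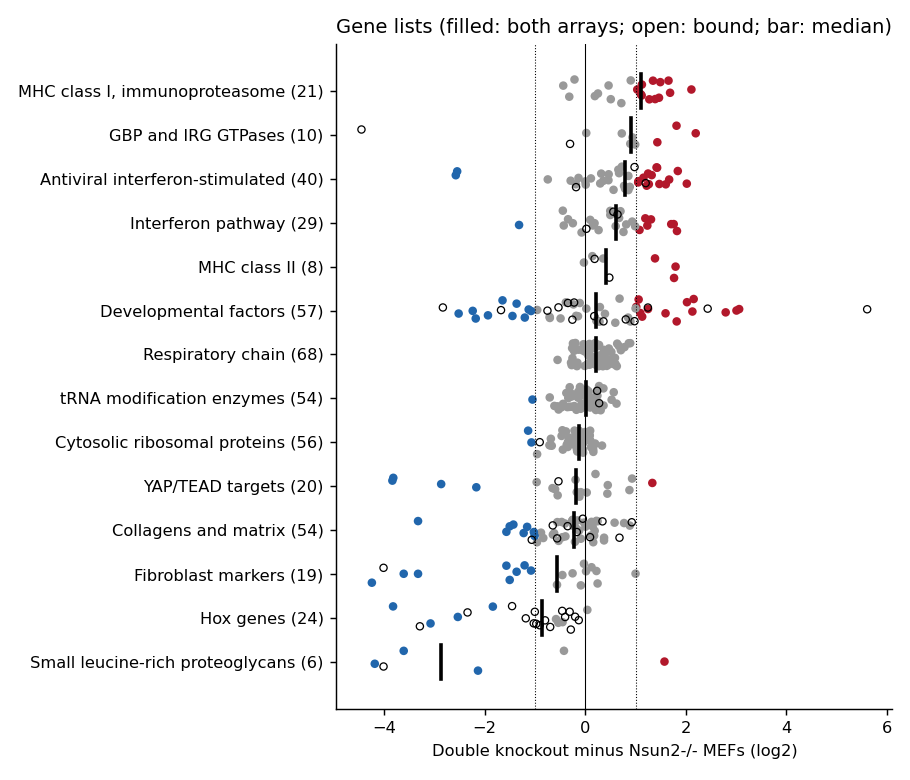
Log2 difference, double knockout minus Nsun2-/- MEFs (abscissa), of each detected member of 14 gene lists (rows, number of detected genes in parentheses), with the median as a bar. Filled points were detected on both arrays and open points are bounds, red and blue mark differences of at least 2-fold, and dotted lines mark 2-fold. The interferon and antigen presentation lists lie to the right of 0, Hox genes and small leucine-rich proteoglycans to the left, and tRNA modification enzymes around 0.

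The lists of matrix and fibroblast genes overlap in members such as Dcn, Lum and Fbln2. The small leucine-rich proteoglycans bind collagen fibrils and growth factors. Of 6 detected, 5 were lower and 4 at least 2-fold (median −2.87). Dcn (decorin) had signals of 12.06, 13.31, 13.16 and 9.55 in wild-type, in Dnmt2-/-, in Nsun2-/- and in double knockout MEFs and was 12.2-fold lower, and a further Dcn probe differed by −4.71. Prelp read 6.59, 9.79, 9.99 and 5.80 and was 18.2-fold lower. Lum (lumican) read 6.38, 9.67, 8.41 and 4.13 (not detected) and was at least 16.1-fold lower. Fmod (fibromodulin) read 6.22, 8.30, 7.18 and 5.05. All of these were higher in each single knockout than in wild type, and below wild type in the double knockout. Bgn differed by −0.42, and Ogn was 1.58 higher by its brightest probe and 0.97 as a mean over probes.

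Of 54 detected collagen and structural matrix genes 35 were lower, 9 at least 2-fold and none 2-fold higher (median −0.22). Fbln2 (fibulin-2) had signals of 11.22, 11.20, 11.17 and 7.85 in wild-type, in Dnmt2-/-, in Nsun2-/- and in double knockout MEFs and was 10-fold lower, with nearly equal signals on the other MEF arrays. Further Fbln2 probes did not agree, at 0.04 and −2.29. The others of at least 2-fold included Lox (−1.57), which crosslinks collagen and elastin, Col3a1 (−1.50), Fbln1 (−1.43), Nid1 (−1.22), Col4a2 (−1.15) and Col4a1 (−1.02). Among metalloproteinases, which degrade matrix, 8 of 12 were lower. Mmp3 read 8.06, 12.01, 10.79 and 6.82 and was 15.7-fold lower, with further probes at −4.38 and −4.69. Mmp13 read 8.62, 8.75, 10.74 and 7.26 and was 11.1-fold lower by its brightest probe, while further probes gave 0.10 and −1.46. Mmp9, a gelatinase, ran the other way, with 5.98, 6.16, 6.09 and 9.25, and was 8.99-fold higher. The metalloproteinases thus differed in both directions, and all 4 detected inhibitors were lower, none 2-fold.

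Of 19 detected fibroblast markers 14 were lower, 9 at least 2-fold and none 2-fold higher (median −0.56). Thy1, a surface glycoprotein used to sort fibroblasts, had signals of 11.59, 11.80, 11.46 and 7.22 in wild-type, in Dnmt2-/-, in Nsun2-/- and in double knockout MEFs and was 18.9-fold lower. The 3 other MEF arrays were alike in Thy1 and the double knockout was far below them. Stromal surface markers as a list were split, 12 higher and 13 lower. Cdh3 (−2.40), Ly6c1 (−1.89), Cd34 (−1.47) and Pdpn (−1.12) were lower, and Itga11 (2.22), Itga7 (1.55) and Alcam (1.31) were higher. Eng (endoglin), a coreceptor for TGF-beta and BMP9, read 4.99, 5.53, 4.71 and 8.50 and was 13.8-fold higher. Eng is also an endothelial marker. Of 16 such markers on the array 6 were detected, Eng among them, 3 higher and 3 lower (median −0.01). Pecam1, Cdh5, Tie1 and Vwf were not detected on either array. Of the epithelial markers 7 of 18 were detected, 6 of them higher (median 0.26), and Pkp3 was at least 1.06 higher on the log2 scale.

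YAP and TAZ are coactivators that act with TEAD factors on genes of stretch and adhesion. Of 20 detected targets 13 were lower, 4 of them at least 2-fold, and Asap1 (1.33) was 2-fold higher (median −0.18). Ankrd1 is shown as the lowest of them with its promoter, at chr19:36119795-36120094 on the minus strand (GRCm38.p6, from RefSeq), in which the TEAD motif GGAATG, searched on both strands, is in capitals at −210 and −123.
Ankrd1: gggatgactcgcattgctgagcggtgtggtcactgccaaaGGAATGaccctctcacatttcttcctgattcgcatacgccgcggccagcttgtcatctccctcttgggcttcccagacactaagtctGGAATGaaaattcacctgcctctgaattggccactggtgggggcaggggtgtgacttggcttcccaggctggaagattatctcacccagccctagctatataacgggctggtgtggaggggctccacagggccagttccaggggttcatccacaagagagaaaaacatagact
The motif was found in 14.7% of all promoter windows and in 7 of 16 windows of the targets. Ankrd1 had signals of 8.87, 7.67, 9.10 and 5.27 in wild-type, in Dnmt2-/-, in Nsun2-/- and in double knockout MEFs and was 14.3-fold lower, with a further probe at −3.26. Cavin2, which shapes caveolae, read 9.22, 9.49, 9.66 and 5.84 and was 14.1-fold lower. Ccn2, a matrix protein induced by TGF-beta, read 9.97, 10.31, 9.53 and 7.36 and was 4.48-fold lower. The double knockout was the lowest array for each of them. Igfbp3 was also lower (−2.86). Targets of serum response factor and smooth muscle genes leaned the other way as a list (16 of 24 higher, median 0.22), although Fhl1 (−3.0) and Actg2 (−2.66) were lower. The TEAD motif was found in 9 of 21 windows of that list.

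The 53 detected BMP, TGF-beta and Wnt signalling genes were 28 higher and 25 lower (median 0.05), and no difference between roles was tested. Of 15 detected ligands of the BMP, TGF-beta and Wnt families 12 were higher, 5 at least 2-fold (median 0.88), and of 10 antagonists 6 were lower, 4 at least 2-fold (median −0.37). Receptors were 7 higher and 10 lower, and targets 5 and 6. Bmp4 had signals of 6.97, 9.86, 7.34 and 9.49 in wild-type, in Dnmt2-/-, in Nsun2-/- and in double knockout MEFs, a 4.43-fold difference, with both arrays without Dnmt2 above both arrays with it. The limma adjusted p of Bmp4 was 0.194. Wnt6 read 5.07, 6.11, 6.29 and 8.26 and was 1.97 higher. The ligand genes Inhbb (1.45), Wnt10a (1.13) and Wnt5b (1.01) were also 2-fold higher, and Inhba was lower (−1.47). Sfrp2, a secreted Wnt antagonist, read 10.27, 11.12, 10.63 and 7.91 and was 6.59-fold lower, and its relative Sfrp1 was also lower (−1.75). Fst, which binds activins, was −1.02 and Fstl1 −1.12. Notum, an enzyme that inactivates Wnt proteins, was detected in the double knockout only and was at least 3.0-fold higher.

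Igfbp2, which binds insulin-like growth factors, had signals of 5.41, 8.24, 5.54 and 8.63 in wild-type, in Dnmt2-/-, in Nsun2-/- and in double knockout MEFs. It was 8.56-fold higher, with a further probe at 3.34, and limma gave it an adjusted p of 0.158 for Dnmt2 loss in MEFs. Cacna1h, a T-type calcium channel, read 5.36, 7.59, 5.54 and 7.72 and had an adjusted p of 0.158 by limma. Both genes were high on both arrays without Dnmt2 and at nearly the same low level on the arrays with it. The imprinted genes had no common direction, 6 of 16 higher: Mest (7.58, 7.28, 6.55 and 8.81), Nnat (1.67) and the cell cycle inhibitor Cdkn1c (1.28) were 2-fold higher, and Dlk1 (9.49, 10.14, 9.36 and 7.22) was lower (−2.13).

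Saa3, Plac8 and Cxcl14 were among the 15 largest lower differences. Saa3, an acute-phase serum amyloid, had signals of 11.67, 12.68, 13.69 and 8.83 in wild-type, in Dnmt2-/-, in Nsun2-/- and in double knockout MEFs and was 29.1-fold lower. Plac8 read 8.12, 10.13, 11.63 and 7.0 and was 24.8-fold lower. The chemokine Cxcl14 read 6.49, 6.81, 8.30 and 4.45 and was 14.4-fold lower, with a further probe at −2.71. In all of these the Nsun2-/- array was the highest and the double knockout the lowest of the MEF arrays. Lcn2, which binds bacterial iron carriers, read 9.96, 13.45, 13.18 and 9.98, so the double knockout was close to wild type and 9.17-fold below Nsun2-/-. As a list, the 37 detected NF-kB targets and chemokines were 17 higher and 20 lower (median −0.11), and the 7 acute-phase and adhesion genes among them had a median of −1.31. The same list was higher in Dnmt2-/- against wild-type MEFs (31 of 37, median 0.66). In the livers Saa3 read 7.51, 7.89, 10.13 and 7.58 in the same order of genotypes. Double knockout minus Nsun2-/- livers was thus −2.55 for Saa3, against 0.01 for Plac8 and 0.55 for Cxcl14.

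Other genes at the ends of the distribution belong to metabolism and signalling. Aldh3a1, an aldehyde dehydrogenase of cornea and of drug metabolism, had signals of 4.99, 4.95, 4.58 and 9.37 in wild-type, in Dnmt2-/-, in Nsun2-/- and in double knockout MEFs and was 27.8-fold higher. Csprs read 4.23 (not detected), 6.27, 5.35 and 8.85 and was 11.3-fold higher, but belongs to a repeated family whose copies the probe may not separate. Dapk2, a death-associated kinase, was 7.78-fold higher by its brightest probe and 0.63 higher on the log2 scale by another. Kcnk5, a potassium channel, was 5.54-fold higher and 0.89 by another probe. Sct, which encodes the hormone secretin, read 5.55, 6.93, 5.83 and 8.29 and was 5.50-fold higher, and Ntn5, Insc and Plcg2 were 6.04-fold, 5.97-fold and 5.67-fold higher. The largest bounds upward were in Cdhr1 (at least 8.28-fold), Trim59 (at least 5.45-fold), Tceal5 (at least 5.39-fold), Slc25a45 (at least 4.15-fold) and Pparg (at least 3.34-fold). For Trim59 the Nsun2-/- array was the odd one, since its signals were 7.10, 6.77, 4.53 (not detected) and 6.98.

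Among the lower genes Rasl11a, a small GTPase, had signals of 9.22, 10.40, 11 and 6.33 in wild-type, in Dnmt2-/-, in Nsun2-/- and in double knockout MEFs and was 25.5-fold lower. Cyp7b1, an oxysterol hydroxylase, read 9.50, 10.34, 10.88 and 7.31 and was 11.9-fold lower. Adm, the vasodilator adrenomedullin, read 7.60, 8.98, 9.43 and 6.15 and was 9.70-fold lower. These 3 genes had the same order of arrays, with Nsun2-/- the highest and the double knockout the lowest. Of the genes detected in Nsun2-/- MEFs only, Csgalnact1, which starts chondroitin sulfate chains, was at least 9.24-fold lower, Foxq1 at least 7.50-fold, Il1rn, the interleukin-1 receptor antagonist, at least 7.07-fold and Mmp10 at least 5.07-fold.

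The tRNA modification list was evenly split, and lists of the translation machinery had small medians. Of 54 detected tRNA modification genes 27 were higher and 27 lower (median 0.01), and Urm1 (−1.05), a sulfur carrier for tRNA thiolation, was the one 2-fold apart. The other cytosine methyltransferase genes Nsun4 (0.02) and Nsun5 (0.09) were close to 0, and Nsun6 was at least 0.28 higher on the log2 scale. Among 25 genes of tRNA cleavage and stability (median −0.03) Rnase4, a relative of angiogenin, was lower (−1.03). The 20 aminoacyl-tRNA synthetases had a median of 0.01 and none was 2-fold apart. Cytosolic ribosomal protein genes were 40 of 56 lower by small amounts (median −0.12), and the 2 of them 2-fold lower, Rps7 (−1.14) and Rpl22 (−1.07), had the largest differences of the list. Translation factors were 23 of 37 lower (median −0.13) and ribosome biogenesis genes 25 of 41 (median −0.14). Respiratory chain subunits were 49 of 68 higher (median 0.21), none 2-fold, and 42 had their highest MEF signal in the double knockout. In Dnmt2-/- against wild-type MEFs the respiratory chain list lay the other way, with 10 of 68 higher and a median of −0.21. The DNA methyltransferase Dnmt1 differed by 0.16, and the cofactor Dnmt3l was at least 3.06-fold lower.

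The differences were next set against Dnmt2-/- minus wild-type MEFs, the same loss where Nsun2 is present. Across the 7960 genes detected on all 4 MEF arrays the correlation of both differences was −0.02, with genes that are not independent of each other. Of the 323 genes 2-fold higher in the double knockout, 312 were detected in the other pair, 219 were higher there and 51 were 2-fold higher, against 2.73% of all 9742 genes detected in it. In that pair 353 genes (3.62%) were 2-fold apart. Of the 321 lower genes, 320 were detected, 107 were lower there and 15 were 2-fold lower, against 0.893%. In the opposite direction, 65 of the lower genes were 2-fold higher in Dnmt2-/- against wild type, which is 20.3% of the lower genes and 24.4% of the genes 2-fold higher there. By contrast, 4 of the higher genes were 2-fold lower there (Nr2f1, Rorb, Tenm3 and Plcl2, named after their values were seen).

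The 65 opposite genes had median log2 signals of 7.21, 8.98, 8.45 and 6.65 in wild-type, in Dnmt2-/-, in Nsun2-/- and in double knockout MEFs. Of them 47 were also at least 2-fold higher in Nsun2-/- than in wild-type MEFs, and 55 were lower in the double knockout than in wild type. The choice of the 65 required low wild-type and double knockout signals relative to their partners, which favours both counts. No share over all genes was set beside these counts, so they only describe the chosen genes. Among the 65 were Dcn, Lum, Prelp, Fmod, Mmp3, Lcn2, Saa3, Plac8 and Adm, described above. The difference between the effects was tested with limma as the Dnmt2 by Nsun2 interaction, averaged over MEFs and livers. An unadjusted p under 0.05 was given to 30 of the 65 and to 3.85% of all 10491 genes, and the smallest adjusted p over all genes by limma was 0.955. The 65 were chosen by opposite differences on the same MEF arrays that enter this fit. A higher share among them follows from that choice and is no test of an interaction. With 1 array a genotype, these counts describe the 4 MEF arrays, of which wild type and Dnmt2-/- also differ from the others in the sex-linked genes given above.

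**Figure D4:**
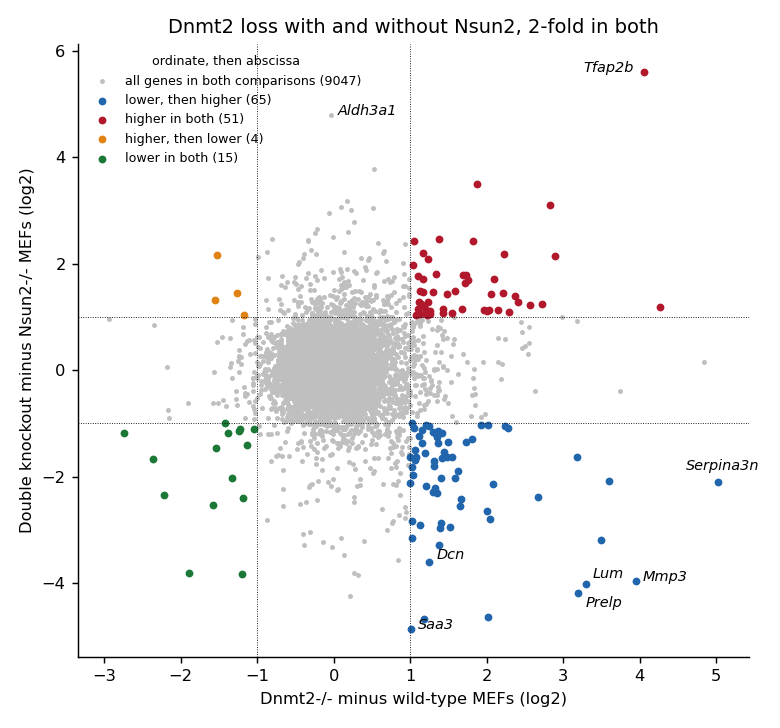
Log2 difference between double knockout and Nsun2-/- MEFs (ordinate) against that between Dnmt2-/- and wild-type MEFs (abscissa) for the 9047 genes present in both comparisons, with dotted lines at 2-fold. Coloured points were 2-fold in both, namely 51 higher in both (red), 15 lower in both (green), 65 lower on the ordinate and higher on the abscissa (blue) and 4 the reverse (orange). Tfap2b lies at the upper right, and Mmp3, Lum, Prelp, Dcn and Saa3 lie at the lower right.

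In limma's fit of Dnmt2 loss in MEFs none of 10491 genes had an adjusted p under 0.05, with 677 (6.45%) at an unadjusted p under 0.05. The smallest adjusted p by limma was 0.158, which Tfap2b, Igfbp2, Cacna1h and Hoxd9 shared. The fit rests on 2 residual degrees of freedom and takes its spread from how far the 8 arrays depart from the additive layout, since there are no replicate cultures. When arrays were scaled to the same median in place of quantile normalization, limma called 5 genes: Tfap2b (5.52, SE 0.337, adjusted p 0.0421), Cacna1h (2.41), Igfbp2 (3.12), Hoxd9 (−2.82) and the bHLH-PAS factor Sim2 (−2.64), the last 4 with an adjusted p of 0.0426. Sim2 read 6.76, 4.41 (not detected), 6.07 and 4.11 (not detected) in wild-type, in Dnmt2-/-, in Nsun2-/- and in double knockout MEFs. It was thus detected only on the arrays with Dnmt2, the reverse of Tfap2b.

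In the livers, double knockout against Nsun2-/- differed 2-fold in 254 of 8940 genes (2.84%). Of the 323 genes higher in MEFs, 236 were detected in those livers, 119 were higher there and 7 were 2-fold higher, against 1.54% of all. Of the 321 lower ones 234 were detected, 111 were lower and 6, Saa3 among them, were 2-fold lower, against 1.3%. In the opposite direction, 7 of the lower ones were 2-fold higher in liver. The MEF differences as a whole were thus about evenly split by direction in liver.

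Differences were not spread evenly over the genome. The median of the 258 genes on chromosome 12 detected on both arrays was −0.38 and 80.2% of them were lower. On chromosome 14 the median of 259 genes was 0.35 with 83.0% higher, and on chromosome 15 that of 363 genes was 0.26 with 71.3% higher. Chromosome 1 was at 0.15, and the others lay between −0.11 and 0.11. On chromosome 12, 36 genes were 2-fold lower and 3 2-fold higher, and the median was −0.68, −0.34 and −0.23 in 3 equal groups of its genes taken in order along the chromosome. The chromosome 12 median was also −0.64 against wild-type and −0.50 against Dnmt2-/- MEFs, so the low level lay mainly in the double knockout array. The same median was −0.23 in Nsun2-/- minus wild-type and −0.11 in Dnmt2-/- minus wild-type MEFs. The Nsun2-/- array was thus also below wild type on chromosome 12, by less. Chromosome 14 was different: its median was 0.22 in Dnmt2-/- minus wild-type MEFs and 0.02 in double knockout minus Dnmt2-/-, so that both arrays without Dnmt2 were alike. The chromosome 15 median was 0.33 both against wild-type and against Dnmt2-/- MEFs. Dlk1, Twist1, Meox2 and Rps7 lie on chromosome 12, and Bmp4, Psme1 and Psme2 on chromosome 14. Relative to the median of its chromosome, Bmp4 was 1.80 higher. When each gene's chromosome median was subtracted, an alternative chosen after seeing the data, 595 genes were 2-fold apart, 549 of them shared with the 644. The list medians then were −0.90 for Hox genes, 0.84 for antiviral genes and 1.09 for class I and immunoproteasome genes. DNA copy number was not measured, and its part in these differences was not tested.

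**Figure D5:**
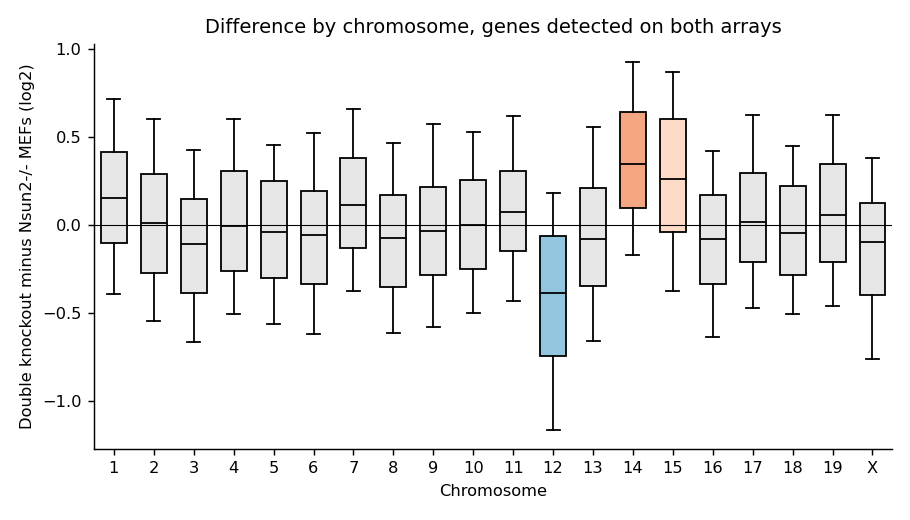
Log2 difference, double knockout minus Nsun2-/- MEFs (ordinate), of the genes detected on both arrays by chromosome (abscissa). The line in each box is the median, the box spans the quartiles and the whiskers run from the 10th to the 90th percentile. Chromosome 12 (blue) lies below 0 with a median of −0.38, and chromosomes 14 and 15 (red shades) lie above it at 0.35 and 0.26.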

How the data were processed

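RNA was measured with Illumina MouseRef-8 v2 arrays, 1 array for each of 8 groups, taken from the sample labels. The table that was not normalized holds deposited intensities per probe on a linear scale and a detection p-value for each, per the file headers. A second table holds the authors' processed intensities, made by a normalization not given in the sources used here; their rank correlation with the other table was at least 0.999 on every array, and they served as an alternative. For arrays, the number of arrays limits the precision.

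Intensities were background-corrected with limma's normexp from the deposited detection p-values (offset 16), log2-transformed and brought to common quantiles across the 8 arrays. Of 25608 probes, 23898 had 1 symbol, 0 had several and 1710 had none, and the entrez identifiers of 23882 matched a RefSeq gene table (GRCm38.p6). Of the probes of each of 16559 genes, the one with the highest mean signal after normalization was used, which mattered for 4757 genes. A probe was detected at p under 0.01. An undetected side of a comparison was raised to the array's lowest detected value, so that a fold is then written "at least". In sentences that give signals on all 4 MEF arrays, an undetected probe stands at its measured value. No p-value was computed for a pair of arrays.

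Two-sided tests used limma 3.58.1 in R 4.3.3 with Benjamini-Hochberg adjustment at 0.05 over the 10491 genes detected on at least 2 arrays: Dnmt2 loss within MEFs (2 residual degrees of freedom) and the Dnmt2 by Nsun2 interaction (3). On simulated data with 200 changed genes of 10491, the fits recovered 0% where the log2 change was 1, and where it was 2, 98% for Dnmt2 loss (14 false calls) and 93% for the interaction (16). The interaction was fitted as an average over MEFs and livers, so its share does not describe a difference in MEFs alone. The simulated noise was normal, with each gene's spread as already moderated by the fit, so these shares do not give the power on the real arrays. There, Tfap2b had an estimate of 5.09 for Dnmt2 loss and a limma adjusted p of 0.158. The lack of calls does not show that such changes were absent. Counts used Python 3.11.15 and pandas 2.3.3.

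The comparison, the 48 gene lists and the rules were chosen with earlier results of these data known. The genes named were the 15 largest differences each way among genes detected on both arrays, the 8 largest bounds each way, up to 6 members of a list with the largest differences, members with a defined role in a pathway, the targeted and sex-linked genes, and the 10 neighbours of Trdmt1 on each side, without predicted genes. Further members of the lists of developmental factors, matrix, stromal surface and signalling genes, and Irx2, Cacna1h and the 5 genes called after median scaling, were chosen after their values were seen. Alternatives changed the background correction, the values, the normalization, the probe choice, the detection filter and, for the fits, left out each array.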

Additional observations from a re-analysis of the deposited data

Results flagged for a closer look

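Of the genes with the largest differences and bounds, 10 were at least 2-fold apart in opposite directions in the pairs that differ in Dnmt2. They were lower in the double knockout than in Nsun2-/- MEFs and higher in Dnmt2-/- than in wild-type MEFs. Of all genes 2-fold lower in the double knockout, 320 were detected in the other pair. Of these, 65 were 2-fold higher there, against 2.73% of all 9742 genes detected in that pair. The 10 genes were picked as extreme and opposite, so their count does not show how unusual the pattern is. With 1 array a group the opposite signs rest on 4 arrays. The limma test of the Dnmt2 by Nsun2 interaction, averaged over MEFs and livers, gave each of the 10 genes an adjusted p of 0.955. The difference of effects thus did not pass the test. On the log2 scale, Saa3, an acute-phase protein, was −4.86 against 1.01 in the pair with Nsun2. Rasl11a, a small GTPase, was −4.67 against 1.19, and Plac8 was −4.63 against 2.02. The small leucine-rich proteoglycans Prelp (−4.18 against 3.20), Lum (−4.01 against 3.29) and Dcn (−3.61 against 1.25) shared the pattern. The metalloproteinase gene Mmp3 was −3.97 against 3.95. Adm was −3.28 against 1.38. The transcription factors Foxq1 (−2.91 against 1.13) and Meox2 (−2.83 against 1.02) were the others. Lum, Foxq1 and Meox2 were not detected in the double knockout, so their values for double knockout minus Nsun2-/- MEFs are bounds. Meox2 was not detected in wild-type MEFs either, so its 1.02 is also a bound.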

How the results depend on the processing

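The count of 644 genes at least 2-fold apart was 270 with no background correction (118 higher, 152 lower), 373 with an offset of 50 (171 and 202) and 262 with the authors' deposited values (112 and 150), in each case genes of the 644. It was 584 to 764 under median scaling, MEF arrays normalized alone, probe means or a detection p under 0.05, and 563 over genes detected on both arrays. With no background correction Six2, Notum, Mmp10, Hoxd9 and Irf5 were below 2-fold, and the cause was not tested. Apart from list medians close to 0, no list median and no named difference reversed. Median scaling was the one setting that gave limma calls for Dnmt2 loss in MEFs, 5 against 0. The interaction had 0 calls under every setting run. Unadjusted limma p values under 0.05 numbered 500 to 1282 for Dnmt2 loss and 241 to 979 for the interaction over all settings, with 0 adjusted calls when any 1 array was left out. The muscle marker median was 0.17 and reached 1.00 in one setting, on 8 or fewer genes. No paired analysis was possible because each group has 1 array. Slide as a block was not run, since no slide is given in the sources used here. Each pair of arrays has no replicate check, and probes near background limit what dim genes such as Trdmt1 and Hoxd9 can show.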

Other observations

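Other gene groups of the double knockout against Nsun2-/- MEFs differed in single members more than as lists. Of 24 detected p53 targets 15 were higher (median 0.16), with the detoxifying epoxide hydrolase Ephx1 at 1.72, the lipid transfer protein Pltp at 1.19, Ccng1 at 1.18 and the cell cycle inhibitor Cdkn1a at 1.12, while the autophagy gene Dram1 (−2.12) and Gadd45a (−1.65) were lower. Of 28 glycolysis and hypoxia genes 18 were lower (median −0.35), with the oxygen sensor Egln3 at −2.14 and Pdk1 at −1.12 against Car9 at 1.13. Of 32 ATF4 targets, genes of the amino acid stress response, 19 were lower (median −0.11) and 4 at least 2-fold: Stc2 (−1.90), Cebpb (−1.23), the cationic amino acid transporter Slc7a3 (−1.18) and Aldh1l2 (−1.11). Cholesterol synthesis genes were 14 of 18 lower in MEFs (median −0.27), none 2-fold, and 17 of 18 higher in the double knockout against Nsun2-/- livers (median 0.61). Among conjugation enzymes the glutathione transferases Mgst1 (−2.18) and Mgst2 (−2.05) were lower and Gsta4 (1.33) was higher.

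Among markers of other cell types, the glial and neuronal genes Gap43 (−1.71) and Map2 (2.11) lay on opposite sides, and the lipoprotein lipase gene Lpl was lower (−2.62). The phosphatases Dusp6 (−1.42) and Dusp1 (−1.12), feedback inhibitors of MAP kinases, were lower among 22 immediate-early genes, of which 15 were lower (median −0.29). The cyclin gene Ccnd1 (1.27) was the one of 43 cell cycle genes at least 2-fold apart.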
